A study of Mus musculus with 8 samples.

Results

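The genes of mitochondrial citrate cycle, ketone body and branched-chain amino acid catabolism were followed through 8 RNA sequencing libraries of mouse myocardium. They were chosen by name, as 30 of the 33249 genes of the deposited table: 13 genes of the citrate cycle, 3 of ketone body use and 14 of the breakdown of leucine, isoleucine and valine. The citrate cycle oxidizes acetyl-CoA in the mitochondrial matrix and feeds reduced cofactors to the respiratory chain, and the heart, which works without pause, depends on it for most of its ATP. Ketone bodies made by the liver are turned back into acetyl-CoA in heart muscle, and their use is known to grow in the failing heart. Branched-chain amino acids are first transaminated, then decarboxylated by a large dehydrogenase complex that is switched by a kinase and a phosphatase, and finally broken down to acetyl-CoA, acetoacetate or succinyl-CoA, so that all the routes end in the citrate cycle.

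The libraries fall into 4 groups of 2, named for genotype and operation: CKO-MI, CKO-Sham, fl/fl-MI, fl/fl-Sham. CKO mice carry floxed Piezo1 alleles and a Cre recombinase that tamoxifen activates in cardiomyocytes under the Myh6 promoter (Myh6-MerCreMer). The fl/fl mice are littermates with the floxed alleles but no Cre (labelled WT for genotype). MI is permanent ligation of the left anterior descending artery in adult mice with hearts taken at day 42, and sham is the operation without ligation, for which the labels give no time. The sources do not say how many mice stand behind a library, of which sex, or how much scar the sampled myocardium held, and p-values here measure only the spread between these libraries. Piezo1, the targeted gene, was at 72.2 and 82 CPM in fl/fl-Sham, 76.7 and 88.3 in CKO-Sham, 53.5 and 64.8 in fl/fl-MI and 56.3 and 64.6 in CKO-MI (CPM, counts scaled to a fixed library size after normalization), and thus was not lower in either CKO group. These values are for RNA of whole myocardium, while the deletion is limited to cardiomyocytes. The paper reports the deletion in protein, by Western blot of isolated adult cardiomyocytes. Esr1, whose hormone-binding part belongs to the MerCreMer protein, was at 8.36 and 6.41 CPM in fl/fl-Sham, 5.52 and 7.6 in CKO-Sham, 7.75 and 331 in fl/fl-MI and 707 and 402 in CKO-MI. Both libraries labelled CKO-Sham were thus low in Esr1, and fl/fl-MI 2 by its label was high. That library also held more RNA of atrial genes (their summed level was 19857 CPM there against 2547 to 4450.3 CPM in the other MI libraries). Groups are named below by their labels, every genotype comparison rests on those labels, and for the 10 members called over both genotypes the change after MI is also given without CKO-Sham and fl/fl-MI 2, the libraries at odds with them. Deposited counts totalled 73821747 to 88117573 per library, and the part taken by the genes of the mitochondrial genome was 43.1% to 46.4% in sham and 19.9% to 24.2% in MI libraries.

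All 30 genes passed the filter on low values (a mean FPKM, a level scaled to library size and to a length per gene, which for the deposited gene values fits all annotated exon bases rather than 1 transcript, of at least 0.5). Over both genotypes, edgeR's quasi-likelihood test called 7 of them higher and 3 lower after MI at a Benjamini-Hochberg adjusted p under 0.05, where 22% and 18.3% of the 14028 genes tested were called higher and lower. The count of higher members was near that background and the count of lower members was below it. Values after ± are standard errors of the log2 fold change. Ogdh, Dld, Oxct1, Bdh1, Dbt, Mccc1 and Hibch rose, while Idh2, Suclg1 and Bckdhb fell, and members of the same enzyme complex stood on both sides. The median log2 fold change of the 30 genes was 0.30, against 0.03 over all genes tested. On the deposited FPKM scale the median of all genes shifted to 0.56 (limma on log2(FPKM + 0.1)), and there 22 members were called higher and 0 lower, with 50.8% of all genes higher and 5.88% lower. Relative to the median of all genes, the same scale placed Idh2 at -0.82, Suclg1 at -0.81, Ogdh at 0.90 and Oxct1 at 0.83, against -0.82, -0.82, 0.89 and 0.80 with TMM normalization. In 2 members (Ogdh and Oxct1) all MI libraries lay above all sham libraries and in 2 (Idh2 and Suclg1) below, against 20.9% and 19.5% of all genes tested. In bulk tissue, fewer cells of a type and less RNA per cell cannot be told apart. With fl/fl-Sham as the only sham group, 0 of the 30 passed, where 8.46% of all genes were higher and 8.23% lower. With fl/fl-MI 2 left out as well, 1 was higher and 7 were lower, where 18.6% and 16.8% of all genes were.

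**Figure D1:**
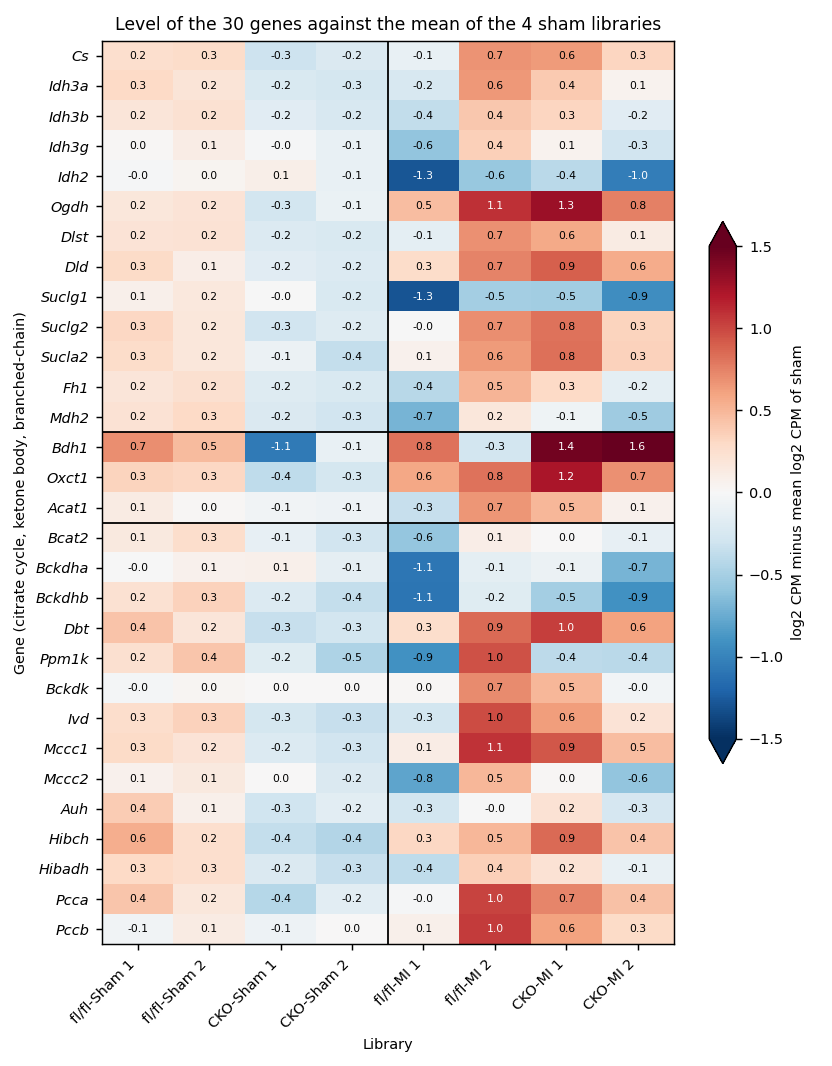
Heat map of the 30 genes (rows, by pathway) in the 8 libraries (columns): each cell gives log2 CPM minus the gene's mean over the 4 sham libraries, red for higher and blue for lower, with the colour scale ending at 1.5 either way. Idh2, Suclg1 and Bckdhb are blue in all 4 MI libraries, Ogdh and Oxct1 are red in all 4, and the columns of fl/fl-MI 2 and CKO-MI 1 are redder than those of fl/fl-MI 1 and CKO-MI 2.

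In the citrate cycle, Ogdh and Dld rose and Idh2 and Suclg1 fell over both genotypes, and 9 of the 13 genes did not pass the test. Ogdh encodes the oxoglutarate decarboxylase (E1) of the complex that makes succinyl-CoA, a rate-controlling step of the cycle (ENSMUSG00000020456, chromosome 11 of GRCm38 from 6291633 to 6356642). Its level was 652 and 667 CPM in fl/fl-Sham, 477 and 537 in CKO-Sham, 799 and 1235 in fl/fl-MI and 1403 and 976 in CKO-MI. All 4 MI libraries lay above all 4 sham libraries, and the mean level went from 583 to 1103 CPM. The log2 fold change was 0.93 ± 0.19 (adjusted p = 0.0093), and the call was kept when any single library was left out, but the value was 0.74 (adjusted p = 0.111) against fl/fl-Sham alone and 0.56 (adjusted p = 0.0816) without fl/fl-MI 2 as well. Dlst, the succinyl-transferase (E2) of the same complex, stood at 0.35 ± 0.20 (adjusted p = 0.206), and Dld, the dihydrolipoamide dehydrogenase (E3) that the complex shares with the pyruvate and branched-chain dehydrogenases, at 0.63 ± 0.15 (adjusted p = 0.0143) (ENSMUSG00000020664, chromosome 12 of GRCm38 from 31331277 to 31351453). Dld was at 190.3 and 168 CPM in fl/fl-Sham, 139 and 135 in CKO-Sham, 189 and 262 in fl/fl-MI and 291 and 229 in CKO-MI, and fl/fl-MI 1 lay within the range of fl/fl-Sham. Its change was 0.44 (adjusted p = 0.185) against fl/fl-Sham alone and 0.31 (adjusted p = 0.182) without fl/fl-MI 2 as well. With 1 library left out the change of Dld lay between 0.50 and 0.72, and its call was lost for 4 of the 8 libraries. The ratio of Ogdh to Dlst in FPKM was 4.16 to 4.76 in sham and 5.8 to 7.2 in MI libraries.

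Idh2, the NADP-dependent isocitrate dehydrogenase of mitochondria that supplies NADPH, had the highest mean level of the 30 in FPKM, in sham as in MI libraries (353 ± 28.5 FPKM in sham, SD, n = 4, at ENSMUSG00000030541, chromosome 7 of GRCm38 from 80094846 to 80115392). It was at 1133 and 1183 CPM in fl/fl-Sham, 1216 and 1059.5 in CKO-Sham, 470.5 and 772 in fl/fl-MI and 868 and 561 in CKO-MI, and every MI library lay below every sham library. The log2 fold change was -0.78 ± 0.21 (adjusted p = 0.0249), and -0.80 (adjusted p = 0.102) against fl/fl-Sham alone and -0.998 (adjusted p = 0.0194) without fl/fl-MI 2 as well. With 1 library left out the change of Idh2 lay between -0.99 and -0.65, and its call was lost for 5 of the 8 libraries. The 3 subunits of the NAD-dependent enzyme that drives the cycle stood apart from Idh2: Idh3a, the catalytic subunit, was at 0.25 ± 0.20 (adjusted p = 0.344), Idh3b at 0.08 ± 0.20 (adjusted p = 0.755) and Idh3g at -0.07 ± 0.21 (adjusted p = 0.805). Both enzymes act on isocitrate, and their ratio within a library does not depend on the factor by which the library was scaled. It can still carry the trend with transcript length given below, as the leading transcripts measured 1745 bases for Idh2 and 2580 for Idh3a. The ratio of Idh2 to Idh3a in FPKM was 7.43 and 8.31 in fl/fl-Sham, 11.5 and 10.3 in CKO-Sham, 4.46 and 3.97 in fl/fl-MI and 5.32 and 4.35 in CKO-MI, and all 4 MI libraries lay below the lowest sham library.

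Succinyl-CoA ligase, the step of the cycle that makes ATP or GTP directly, joins a common alpha subunit (Suclg1) with a beta subunit specific for ADP (Sucla2) or GDP (Suclg2). Suclg1 (ENSMUSG00000052738, chromosome 6 of GRCm38 from 73248382 to 73276911) was at 241 and 255 CPM in fl/fl-Sham, 228 and 196 in CKO-Sham, 93.1 and 161 in fl/fl-MI and 159.7 and 120.5 in CKO-MI, with every MI library below every sham library and a log2 fold change of -0.78 ± 0.19 (adjusted p = 0.0183). It was -0.89 (adjusted p = 0.0609) against fl/fl-Sham alone and -1.12 (adjusted p = 0.00495) without fl/fl-MI 2 as well. With 1 library left out the change of Suclg1 lay between -1.01 and -0.63, and its call was lost for 4 of the 8 libraries. The beta subunits did not follow Suclg1: Sucla2 stood at 0.49 ± 0.18 (adjusted p = 0.0622) and Suclg2 at 0.49 ± 0.18 (adjusted p = 0.0695), neither of which passed. The ratio of Sucla2 to Suclg1 in FPKM was 1.12 and 0.985 in fl/fl-Sham, 0.914 and 0.886 in CKO-Sham, 2.5 and 2.16 in fl/fl-MI and 2.46 and 2.35 in CKO-MI. All 4 MI libraries lay above all 4 sham libraries, and the mean ratio was 2.43 times as high after MI. The size of the ratio depends on the lengths used: with the lengths of the leading transcripts it was 0.522 to 0.658 in sham and 1.27 to 1.47 in MI libraries. Between the beta subunits the ratio of Sucla2 to Suclg2 stayed within 3.77 and 4.13 in MI libraries, inside the sham range of 3.51 to 4.51. Of the remaining enzymes none passed. Cs, citrate synthase, which brings acetyl-CoA into the cycle, was at 0.42 ± 0.19 (adjusted p = 0.12), Fh1, fumarase, at 0.11 ± 0.21 (adjusted p = 0.715), and Mdh2, malate dehydrogenase, at -0.24 ± 0.21 (adjusted p = 0.391). These ratios are a description with no test, and they were chosen with values of these data known.

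**Figure D2:**
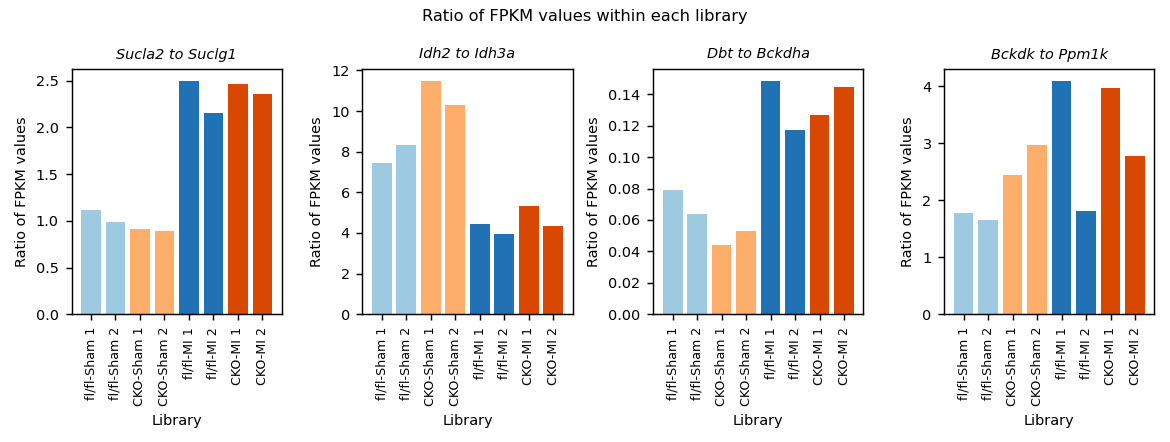
Bars of the ratio of FPKM values within each of the 8 libraries, for Sucla2 to Suclg1, Idh2 to Idh3a, Dbt to Bckdha and Bckdk to Ppm1k, coloured by group (each axis starts at 0). Sucla2 to Suclg1 and Dbt to Bckdha are higher in all 4 MI libraries than in any sham library, Idh2 to Idh3a is lower in all 4, and the ranges of Bckdk to Ppm1k overlap.

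The deposited transcript table divides Ogdh mainly between a pair of transcripts. ENSMUST00000003461 took 96.1% of the summed FPKM of the gene's transcripts in sham and 69% in MI libraries (means of 4). ENSMUST00000101554 was at 10.8 and 0.0103 FPKM in fl/fl-Sham, 0.413 and 0 in CKO-Sham, 74.2 and 72.9 in fl/fl-MI and 117 and 92.4 in CKO-MI, and its mean share went from 2.33% to 28.5%. No MI library overlapped a sham library in this share. The exact two-sided permutation test gave p = 0.0286, the smallest that 4 libraries against 4 allow, as it does for any share without overlap. The transcript was picked after its values had been seen, so this p-value adds nothing to the lack of overlap. In GENCODE M21 both transcripts have 23 exons, 21 of them identical, and the same coding exons from 6296978 on chromosome 11. They part in the untranslated first exon (6291633 to 6291693 in ENSMUST00000003461, 6291666 to 6291769 in the other) and in the last 64 bases of the last exon, so the split rests on reads over these short stretches. Among all transcripts that took at least 5% of a gene with 2 or more such transcripts, 16% did not overlap between MI and sham. Of the 23 such transcripts of the members, in 10 genes, 4 did not overlap: this pair, and ENSMUST00000071056 (mean share 85.3% to 96%) and ENSMUST00000124533 (14.2% to 3.44%) of Bckdk.

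**Figure D3:**
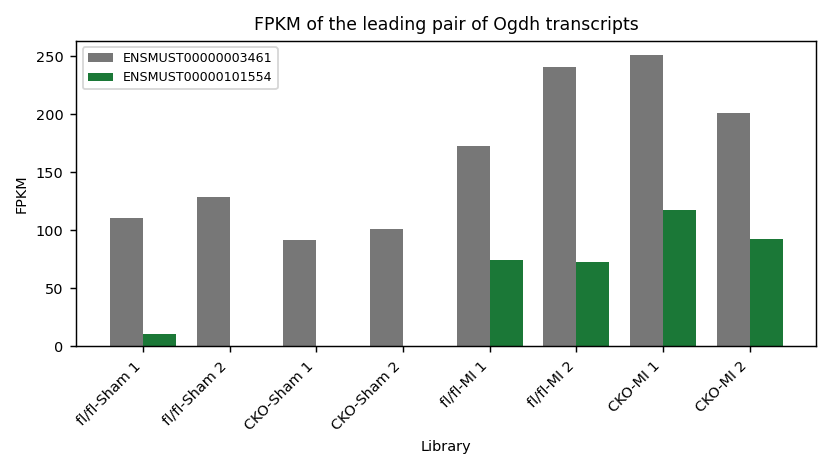
FPKM of the Ogdh transcripts ENSMUST00000003461 (grey) and ENSMUST00000101554 (green) in each of the 8 libraries, as bars from 0. The green bars are at 72.9 to 117 FPKM in the 4 MI libraries and at 0 to 10.8 FPKM in the 4 sham libraries.

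The promoters of 5 called genes, 3 higher and 2 lower, were set side by side to show what lies ahead of their start sites. RefSeq promoter windows (250 bases before to 50 after the start, GRCm38.p6) were found for 27 of the 30 genes, and Idh3a, Acat1 and Dbt had none. The windows were searched on both strands for the half-site of the estrogen-related receptors (AAGGTCA), the NRF1 motif, an ETS motif (CCGGAAG) and the CCAAT box (CCAAT). The receptor half-site was in 0 of the 27 windows and in 3.84% of 16596 promoters. The NRF1 motif was in 4 (Dld, Hibadh, Pccb and Sucla2, 14.8% against 7.31%), the ETS motif in 4 (Auh, Dlst, Idh3b and Idh3g, 14.8% against 13.2%), and the CCAAT box in 15 (55.6% against 38%). A match is a description of these letters only. Below, the part of each window ahead of the first annotated exon is given for Ogdh (chr11:6291409-6291632 (+ strand)), Dld (chr12:31351454-31351721 (- strand)) and Oxct1 (chr15:4026178-4026382 (+ strand)), which rose, and for Idh2 (chr7:80115393-80115600 (- strand)) and Suclg1 (chr6:73248255-73248381 (+ strand)), which fell. Capitals mark motif matches: 2 CCAAT boxes in Ogdh, 1 of them on the opposite strand, 2 in Dld, and none in the others over the stretch shown.
Ogdh: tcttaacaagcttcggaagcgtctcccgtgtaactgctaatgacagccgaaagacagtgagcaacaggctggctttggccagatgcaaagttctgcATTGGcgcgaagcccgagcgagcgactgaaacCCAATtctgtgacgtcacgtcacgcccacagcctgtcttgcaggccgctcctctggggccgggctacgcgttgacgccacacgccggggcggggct
Dld: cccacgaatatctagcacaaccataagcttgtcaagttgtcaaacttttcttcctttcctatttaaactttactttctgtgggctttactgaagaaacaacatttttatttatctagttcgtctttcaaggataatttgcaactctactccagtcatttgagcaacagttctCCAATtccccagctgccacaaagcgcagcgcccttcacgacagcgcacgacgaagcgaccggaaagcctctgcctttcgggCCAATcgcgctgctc
Oxct1: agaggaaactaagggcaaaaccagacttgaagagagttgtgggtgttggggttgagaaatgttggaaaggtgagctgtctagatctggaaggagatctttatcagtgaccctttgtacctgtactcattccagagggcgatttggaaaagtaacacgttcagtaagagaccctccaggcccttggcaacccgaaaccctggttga
Idh2: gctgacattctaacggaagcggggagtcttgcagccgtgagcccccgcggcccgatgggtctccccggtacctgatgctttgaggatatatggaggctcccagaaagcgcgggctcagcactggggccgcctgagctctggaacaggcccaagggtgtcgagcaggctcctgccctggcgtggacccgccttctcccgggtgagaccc
Suclg1: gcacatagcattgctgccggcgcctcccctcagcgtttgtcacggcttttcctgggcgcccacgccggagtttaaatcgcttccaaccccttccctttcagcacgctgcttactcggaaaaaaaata

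Of the 3 ketone body genes, Bdh1 and Oxct1 rose over both genotypes and Acat1 did not pass. Oxct1 (ENSMUSG00000022186, chromosome 15 of GRCm38 from 4026383 to 4155344) encodes the CoA transferase that activates acetoacetate, the committing step of ketone use, which the liver lacks. It was at 426 and 417 CPM in fl/fl-Sham, 258 and 281 in CKO-Sham, 502 and 590.4 in fl/fl-MI and 785 and 543 in CKO-MI, and all 4 MI libraries lay above all 4 sham libraries. The log2 fold change was 0.84 ± 0.15 (adjusted p = 0.00562), a mean of 346 against 605 CPM, and like that of Ogdh the call was kept whichever library was left out. The value was 0.52 (adjusted p = 0.142) against fl/fl-Sham alone and 0.45 (adjusted p = 0.126) without fl/fl-MI 2 as well. Bdh1, which oxidizes 3-hydroxybutyrate to acetoacetate (ENSMUSG00000046598, chromosome 16 of GRCm38 from 31422280 to 31458901), was at 51.4 and 44.2 CPM in fl/fl-Sham, 15.3 and 29.4 in CKO-Sham, 55.8 and 26.2 in fl/fl-MI and 86.6 and 97.7 in CKO-MI. Its level in fl/fl-MI 2 was within the sham range, and the other 3 MI libraries lay above every sham library. The log2 fold change was 0.91 ± 0.29 (adjusted p = 0.0406), and the call was lost when any of 6 of the 8 libraries was left out, among them fl/fl-MI 1, without which it was 0.57. It was 0.36 (adjusted p = 0.434) against fl/fl-Sham alone and 0.58 (adjusted p = 0.0194) without fl/fl-MI 2 as well, where it passed. Acat1, the thiolase that splits acetoacetyl-CoA and also serves isoleucine breakdown, was at 197 to 227 CPM in sham and 164 to 329 CPM in MI libraries, with overlapping groups and a log2 fold change of 0.27 ± 0.22 (adjusted p = 0.37). Exons of Bdh1 and Oxct1 share 13.7% and 12.6% of their bases with annotated genes on the opposite strand, and the strand setting of the counting is not given in the sources used here.

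Among the 14 branched-chain genes, Dbt, Mccc1 and Hibch rose, Bckdhb fell and 10 did not pass, with a median log2 fold change of 0.19. The branched-chain keto acid dehydrogenase itself was divided. Dbt, its acyltransferase core (E2, ENSMUSG00000000340, chromosome 3 of GRCm38 from 116513070 to 116549981), was at 21.1 and 17.9 CPM in fl/fl-Sham, 12.4 and 13 in CKO-Sham, 18.8 and 28.3 in fl/fl-MI and 32.1 and 23.8 in CKO-MI, with fl/fl-MI 1 inside the sham range and the other MI libraries above it. The log2 fold change was 0.71 ± 0.17 (adjusted p = 0.0164), and 0.40 (adjusted p = 0.266) against fl/fl-Sham alone and 0.23 (adjusted p = 0.327) without fl/fl-MI 2 as well. Bckdhb, the beta subunit of the decarboxylase (E1, ENSMUSG00000032263, chromosome 9 of GRCm38 from 83925145 to 84124240), was at 34.9 and 37.7 CPM in fl/fl-Sham, 25.7 and 23.1 in CKO-Sham, 14 and 26.1 in fl/fl-MI and 20.8 and 15.8 in CKO-MI. All 4 MI libraries were lower than fl/fl-Sham but overlapped with CKO-Sham, and its log2 fold change was -0.64 ± 0.21 (adjusted p = 0.0441). The value was -0.92 (adjusted p = 0.0658) against fl/fl-Sham alone and -1.18 (adjusted p = 0.00349) without fl/fl-MI 2 as well. Bckdha, the alpha subunit, stood at -0.45 ± 0.23 (adjusted p = 0.157), although 61.7% of its exon bases overlap B3gnt8 on the opposite strand. The ratio of Dbt to Bckdha in FPKM was 0.0791 and 0.0638 in fl/fl-Sham, 0.0439 and 0.0533 in CKO-Sham, 0.148 and 0.117 in fl/fl-MI and 0.127 and 0.144 in CKO-MI, and that of Dbt to Bckdhb was 0.255 to 0.325 in sham and 0.584 to 0.831 in MI libraries. Neither ratio overlapped between MI and sham. The calls of Bckdhb and Mccc1 were each lost when any of 6 libraries was left out, and those of Dbt and Hibch when any of 4 was.

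Neither gene of the switch of the complex passed. Bckdk, the kinase that inactivates it, was at 42.4 and 44.2 CPM in fl/fl-Sham, 43.4 and 43.7 in CKO-Sham, 43.9 and 70.7 in fl/fl-MI and 61.1 and 42.1 in CKO-MI and stood at 0.32 ± 0.18 (adjusted p = 0.195), with fl/fl-MI 2 and CKO-MI 1 above the other 6 libraries. Ppm1k, the phosphatase that activates it, was at 38.7 and 43.7 CPM in fl/fl-Sham, 28.9 and 24 in CKO-Sham, 17.5 and 63.9 in fl/fl-MI and 25.1 and 24.8 in CKO-MI, so that fl/fl-MI 2 held the highest level and the other 3 MI libraries lay below fl/fl-Sham. The log2 fold change was -0.05 ± 0.36 (adjusted p = 0.916), and -0.66 without fl/fl-MI 2. The ratio of kinase to phosphatase in FPKM was 1.78 and 1.65 in fl/fl-Sham, 2.45 and 2.97 in CKO-Sham, 4.09 and 1.8 in fl/fl-MI and 3.97 and 2.77 in CKO-MI, with overlapping ranges. Bcat2, the mitochondrial transaminase that opens the pathway, was at -0.13 ± 0.16 (adjusted p = 0.531).

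Below the complex, genes of leucine breakdown stood at 0.46 ± 0.26 (adjusted p = 0.20) for Ivd, isovaleryl-CoA dehydrogenase, 0.70 ± 0.22 (adjusted p = 0.0415) for Mccc1 and -0.13 ± 0.28 (adjusted p = 0.727) for Mccc2, the biotin-carrying and the catalytic partner of methylcrotonyl-CoA carboxylase, and -0.07 ± 0.14 (adjusted p = 0.719) for Auh, the hydratase that follows. Mccc1 (ENSMUSG00000027709, chromosome 3 of GRCm38 from 35959312 to 36000678) was at 48.1 and 45.3 CPM in fl/fl-Sham, 34.1 and 32.3 in CKO-Sham, 42.5 and 83.7 in fl/fl-MI and 74.9 and 54.1 in CKO-MI, with fl/fl-MI 1 again inside the sham range. The change of Mccc1 was 0.45 (adjusted p = 0.327) against fl/fl-Sham alone and 0.17 (adjusted p = 0.47) without fl/fl-MI 2 as well. The ratio of Mccc1 to Mccc2 in FPKM was 0.311 to 0.42 in sham and 0.544 to 0.749 in MI libraries, without overlap. On the valine branch, Hibch, the 3-hydroxyisobutyryl-CoA hydrolase (ENSMUSG00000041426, chromosome 1 of GRCm38 from 52844929 to 52920986), was at 43.2 and 35 CPM in fl/fl-Sham, 23 and 21.8 in CKO-Sham, 36.6 and 41.6 in fl/fl-MI and 53.3 and 39.6 in CKO-MI, where the MI libraries lay above CKO-Sham and overlapped with fl/fl-Sham. Its log2 fold change was 0.53 ± 0.13 (adjusted p = 0.0186) over both genotypes, 0.12 (adjusted p = 0.657) against fl/fl-Sham alone and 0.08 (adjusted p = 0.756) without fl/fl-MI 2 as well. Hibadh, the next dehydrogenase, was at 0.05 ± 0.18 (adjusted p = 0.841). Pcca and Pccb, the subunits of propionyl-CoA carboxylase, through which valine and isoleucine reach succinyl-CoA, stood at 0.59 ± 0.23 (adjusted p = 0.0768) and 0.55 ± 0.21 (adjusted p = 0.077), and their ratio in FPKM overlapped between sham and MI libraries.

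The other genes of the pathways were taken from lists, chosen with earlier results of these data known. For the genes of these lists, here and in the next paragraph, changes without CKO-Sham and fl/fl-MI 2 are not given. The part of transcript length in their changes was not tested. Over both genotypes, 22% of all 14028 genes tested were called higher after MI and 18.3% lower, the background for each count below. Around the citrate cycle and the entry of pyruvate, 12 of 26 tested genes were higher and 4 lower in that comparison. Pdk1, a kinase that inactivates pyruvate dehydrogenase, stood at 1.03 ± 0.14 (adjusted p = 0.00195) and Pdpr, the regulatory subunit of the phosphatase that reactivates it, at 2.18 ± 0.14 (adjusted p = 0.00040). The pyruvate carrier subunits Mpc1 and Mpc2, which let pyruvate into mitochondria, fell together, by 0.76 and 0.94 on the log2 scale (adjusted p = 0.00465 and 0.00307). Malic enzyme Me1 was at 0.72 ± 0.12 (adjusted p = 0.00502). For ketone bodies, 2 of 7 tested genes were higher and 1 lower. The higher genes were the monocarboxylate transporters Slc16a1 at 1.46 ± 0.17 (adjusted p = 0.0013) and Slc16a3 at 1.82 ± 0.20 (adjusted p = 0.0011), which carry monocarboxylates such as lactate across the cell membrane. Slc16a1 was at 58.7 and 55.8 CPM in fl/fl-Sham, 53.9 and 62.8 in CKO-Sham, 116 and 176 in fl/fl-MI and 196 and 148 in CKO-MI, so that every MI library lay above every sham library. Among other branched-chain genes, 5 of 16 tested genes were higher and 2 lower, with the amino acid transporter Slc7a5 at 1.36 ± 0.19 (adjusted p = 0.00222) and methylmalonyl-CoA mutase (Mmut) at 0.93 ± 0.18 (adjusted p = 0.00793). The methylmalonyl-CoA epimerase that precedes it (Mcee) was at -1.15 ± 0.20 (adjusted p = 0.0050) and Hsd17b10, which acts in isoleucine breakdown, at -0.77 ± 0.14 (adjusted p = 0.00626). Abat, the aminotransferase of the list that also takes a product of valine, was at 1.58 ± 0.36 (adjusted p = 0.0136).

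The regulators of energy metabolism on the list split in the same comparison into 5 higher, 0 lower and 7 not called. Of all genes tested, 22% were higher and 18.3% lower. Ppara, the fatty acid receptor that drives oxidation genes, stood at 2.11 ± 0.23 (adjusted p = 0.00114), the orphan receptors Esrrg and Esrrb at 1.69 ± 0.23 (adjusted p = 0.00209) and 0.94 ± 0.23 (adjusted p = 0.0178), and the coactivators Ppargc1a and Ppargc1b at 1.42 ± 0.23 (adjusted p = 0.00396) and 1.19 ± 0.27 (adjusted p = 0.0122). Among those not called, Klf15 was at 0.54 ± 0.29 (adjusted p = 0.185), Sirt3 at -0.15 ± 0.11 (adjusted p = 0.32), Ppard at 0.16 ± 0.17 (adjusted p = 0.49) and Gabpa at 0.05 ± 0.09 (adjusted p = 0.692). Esrra was at -0.18 ± 0.15 (adjusted p = 0.35), Nrf1 at -0.11 ± 0.12 (adjusted p = 0.493) and Tfam, the factor that packs mitochondrial DNA, at 0.22 ± 0.09 (adjusted p = 0.081). Ppargc1a was at 31.1 and 29 CPM in fl/fl-Sham, 26.4 and 24.4 in CKO-Sham, 68.2 and 109.8 in fl/fl-MI and 79.8 and 43.6 in CKO-MI, and every MI library exceeded every sham library. In the list of mitochondrial carriers and import, 6 of 20 tested genes were higher and 3 lower, against the same shares of all genes. Opa1 and Mfn2, which fuse mitochondrial membranes, stood at 1.14 ± 0.14 (adjusted p = 0.00154) and 1.25 ± 0.21 (adjusted p = 0.00485), Immt, which shapes the cristae, at 0.80 ± 0.17 (adjusted p = 0.00927), the aspartate and glutamate carrier Slc25a13 at 0.77 ± 0.15 (adjusted p = 0.00718), and the prohibitin Phb2 at -0.45 ± 0.09 (adjusted p = 0.00819).

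Within each genotype as labelled, edgeR called members in CKO but none in fl/fl. Both CKO-Sham libraries were low in Esr1 and fl/fl-MI 2 was high, so neither comparison is shown to lie within a single genotype. Against fl/fl-Sham, CKO-Sham had lower values in 29 of the 30 members (49.3% of all genes). In the interaction 0 of 30 passed in edgeR, where 0% of all genes were higher and 0% lower. Between CKO-MI and CKO-Sham, 6 of 30 were higher and 0 lower, where 12.8% and 11.9% of all genes tested were called. Bdh1 stood at 2.05 ± 0.42 (adjusted p = 0.0167), Oxct1 at 1.30 ± 0.21 (adjusted p = 0.00916), Ogdh at 1.23 ± 0.27 (adjusted p = 0.0207), Dbt at 1.14 ± 0.24 (adjusted p = 0.019), Hibch at 1.05 ± 0.19 (adjusted p = 0.0113) and Dld at 0.92 ± 0.21 (adjusted p = 0.0218). The median over the 30 genes was 0.42, against 0.01 over all genes. In 20 members both CKO-MI libraries lay above both CKO-Sham libraries, as they did in 36.4% of all genes, and in 3 (Idh2, Suclg1 and Bckdhb) they lay below, as in 35.8%. Leaving out CKO-Sham 1 ended all 6 calls. In fl/fl the same test called 0 of the 30, with 3 at an unadjusted p under 0.05 (Idh2, Suclg1 and Bckdhb, all lower, with 15.9% of all genes). DESeq2 called 3 lower, with 28.8% of all genes called in either direction, where edgeR called 10.1% of all genes higher and 8.45% lower. Suclg1 was there at -0.97 ± 0.28 (adjusted p = 0.0516), Idh2 at -0.90 ± 0.30 (adjusted p = 0.0791), Bckdhb at -0.86 ± 0.29 (adjusted p = 0.0802), Ogdh at 0.62 ± 0.27 (adjusted p = 0.143) and Oxct1 at 0.37 ± 0.21 (adjusted p = 0.244), and the median was 0.01. Groups did not overlap for 2 members that were higher (32.5% of all genes) and 7 that were lower (29.5%). Without fl/fl-MI 1, 6 members were called higher (15.3% of all genes), and without fl/fl-MI 2, 10 were called lower (13.7%).

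**Figure D4:**
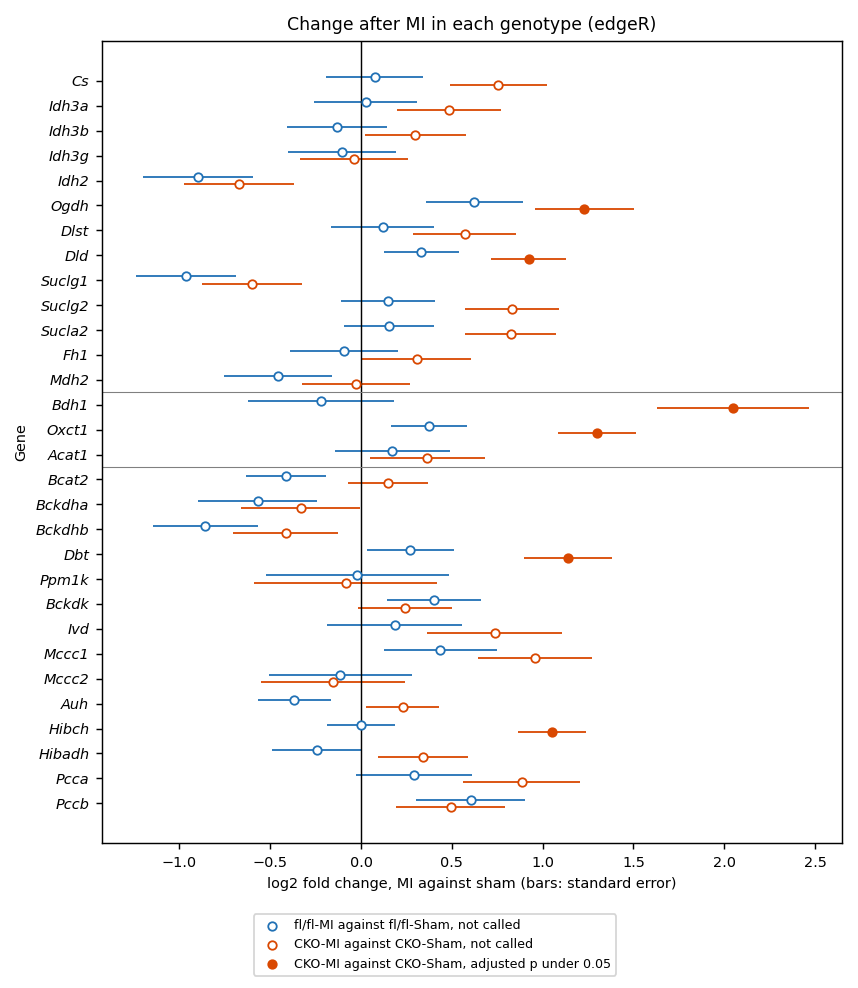
Log2 fold change of MI against sham for each of the 30 genes (rows, by pathway) in fl/fl (blue) and CKO (orange) libraries, with bars of 1 standard error and filled points for an adjusted p under 0.05 in edgeR. Filled points are Ogdh, Dld, Bdh1, Oxct1, Dbt and Hibch in CKO; none is filled in fl/fl.

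The genotype comparisons here and in the next paragraph rest on the labels. Both libraries labelled CKO-Sham were low in Esr1 and fl/fl-MI 2 was high. These comparisons therefore cannot decide whether Piezo1 deletion changed these genes. After sham operation, most members had lower values in the libraries labelled CKO-Sham. In the fit over all libraries 0 of 30 passed, in edgeR (0% of all genes higher and 0.00713% lower) as in DESeq2 (0.242% in either direction), and 4 were lower and 0 higher at an unadjusted p under 0.05, the background of which was 2% lower. The median was -0.45 over the 30 genes and 0.00 over all genes tested, 29 of the 30 had a negative value (49.3% of all genes did), and in 26 both CKO-Sham libraries lay below both fl/fl-Sham libraries, as in 23.8% of all genes. The shift was not limited to the members. Values were negative in 23 of 26 other citrate cycle and pyruvate genes and 19 of 20 carrier and import genes, with 20 and 16 below without overlap. They were negative in 13 of 16 other branched-chain and 4 of 7 other ketone body genes, with 6 and 2 below without overlap. Hibch stood at -0.81 ± 0.19 (unadjusted p = 0.0035, adjusted p = 1.0), Oxct1 at -0.64 ± 0.21 (unadjusted p = 0.0185, adjusted p = 1.0), Bdh1 at -1.10 ± 0.41 (unadjusted p = 0.0306, adjusted p = 1.0) and Dbt at -0.62 ± 0.24 (unadjusted p = 0.037, adjusted p = 1.0). Fitted on the 4 sham libraries alone, where the spread of the MI libraries does not enter, Cs, Idh3a, Oxct1, Ivd, Hibch and Hibadh passed as lower (6 of 30, with 0.741% of all genes), by 0.53, 0.50, 0.65, 0.61, 0.81 and 0.56 on the log2 scale. The median by pathway was -0.42 for the citrate cycle, -0.64 for ketone bodies and -0.52 for branched-chain genes, and Idh2, Bckdha, Bckdk and Pccb were those whose groups overlapped. In the same libraries the summed level of 16 cardiomyocyte markers was 44833 and 46880.2 CPM in fl/fl-Sham and 43469.9 and 41824 in CKO-Sham, and that of 5 erythroid markers was 551 and 201 against 79.7 and 109 CPM. Their part in the difference was not tested.

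After MI, 0 of 30 differed between the genotypes in edgeR, which called 0% of all genes, and in DESeq2, which called 1.48%, and 1 was at an unadjusted p under 0.05, Bdh1 at 1.17 ± 0.41 (unadjusted p = 0.0238, adjusted p = 0.556), against 3.07% of all genes. The median was 0.04, and Bdh1 was also the only member whose groups did not overlap, where 14.5% of all genes were higher without overlap. For the interaction, the change after MI in CKO minus that in fl/fl, 0 of 30 passed in edgeR and 1 (Bdh1) in DESeq2, which called 0.952% of all genes. At the unadjusted level 4 were positive at p under 0.05 (Bdh1, Oxct1, Dbt and Hibch), where 3.55% of all genes were. The interaction contains the sham difference given above with opposite sign, since both use the same sham libraries.

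Within each MI group the members moved together from library to library. In fl/fl-MI 2, 29 of 30 were higher than in fl/fl-MI 1, at a median of 1.73-fold, and in CKO-MI 1, 29 of 30 were higher than in CKO-MI 2, at a median of 1.35-fold, while 48.9% and 49.4% of all genes tested were higher in the same libraries. The single exceptions were Bdh1 in both pairs, at 55.8 and 26.2 CPM for the fl/fl pair and 86.6 and 97.7 CPM for the CKO pair. The summed level of the cardiomyocyte markers followed the same order, 29111 and 55892 CPM for fl/fl-MI against 52379.8 and 34976 CPM in CKO-MI. That of 10 fibroblast and matrix markers ran the other way, 7026 and 2428 against 3590.2 and 5816 CPM, with 1529 to 1697 CPM in sham. The part of the cell mixture in these values was not tested. Of the cardiomyocyte markers 5 were higher and 5 lower after MI over both genotypes, where 22% of all genes tested were higher and 18.3% lower. In that comparison 6 of 7 endothelial markers were lower, and 8 of 10 fibroblast and matrix, 3 of 7 macrophage and 5 of 5 erythroid markers were higher. Atrial markers were called higher in 1 of 5, smooth muscle markers lower in 1 of 4, and adipocyte markers in 0 of 5 either way. Cd3d was at 0 in fl/fl-MI 2 and every other marker was above 0 in each library, and the 7 lymphocyte markers summed to 5.53 to 11.6 CPM.

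The direction of change after MI varied with transcript length. Across all genes tested, the median log2 fold change went from -0.38 for leading transcripts under 1000 bases to 0.20 for those of 4000 bases and over. The members' leading transcripts measured 1233 to 5560 bases, and the Spearman correlation of length with the change was 0.63 over the 30 genes, against 0.24 over the 14028. These are correlations across genes of the same libraries, which are not independent replicates. Suclg1, Idh2 and Bckdhb, which fell, have leading transcripts of 1519, 1745 and 1472 bases, and Ogdh and Oxct1, which rose, of 4127 and 3527 bases. The ratios given above do not remove this trend. Sucla2, Dbt, Ogdh and Mccc1 have leading transcripts of 2229, 3301, 4127 and 2455 bases. The genes they were divided by, Suclg1, Bckdha, Dlst and Mccc2, have 1519, 1899, 2764 and 2123 bases. The part of length in the ratios was not tested. With the length trend of each library taken out of the fit, Ogdh stood at 0.83 (adjusted p = 0.0195), Oxct1 at 0.76 (adjusted p = 0.0101), Idh2 at -0.72 (adjusted p = 0.0309) and Suclg1 at -0.68 (adjusted p = 0.0254), and Dld, Dbt and Hibch also passed, while Bdh1, Mccc1 and Bckdhb no longer did (adjusted p = 0.0508, 0.0572 and 0.0696). Each of the 10 kept its direction. This fit was chosen after seeing the data.

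**Figure D5:**
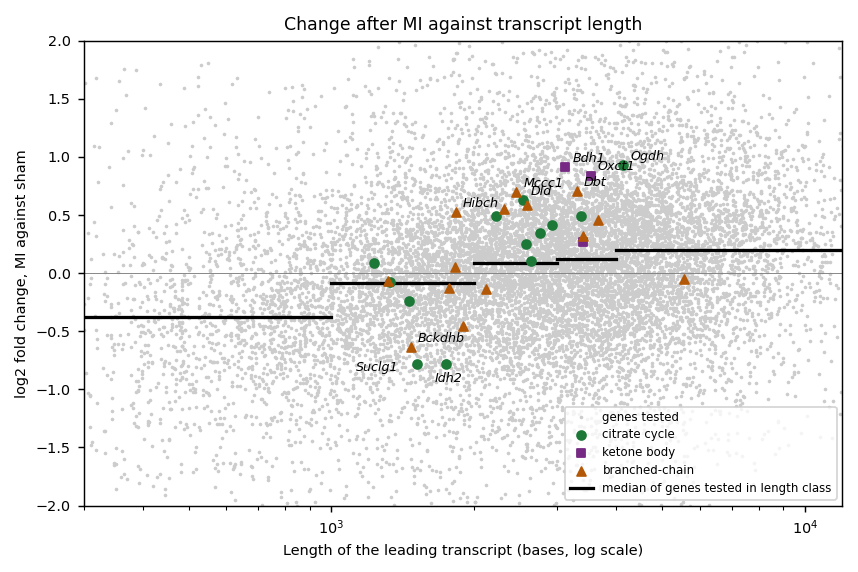
Log2 fold change of MI against sham over both genotypes (vertical) against the length of each gene's leading transcript (horizontal, log scale), with the genes tested in grey, the members in colour by pathway and black lines for the median of all genes tested in 5 length classes. The named points are the 10 members that passed, and the 3 that fell lie under 2000 bases.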

How the data were processed

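Poly(A) RNA of mouse myocardium was sequenced as paired-end reads by the authors. The labels name cutadapt 1.9 and FastQC. Which aligner and counting tool followed is not given in the sources used here. For each gene and transcript the authors deposited a whole-number count without normalization, whose low values pile up at multiples of 4, and an FPKM value scaled to library size and length, which for genes fits all annotated exon bases. Samples were grouped by their labels. The 14028 genes whose mean FPKM reached 0.5 were tested on the deposited counts with edgeR 4.0.16 (quasi-likelihood test, TMM normalization, all 8 libraries, 1 mean per group) in R 4.3.3, with Benjamini-Hochberg adjustment over all of them, and called at an adjusted p under 0.05. Values after ± are standard errors of log2 fold changes unless marked SD. The comparison over both genotypes is the mean of both changes after MI. Alternatives were DESeq2 1.42.0, limma 3.58.1 on log2(FPKM + 1) and log2(FPKM + 0.1), RLE factors, library size without mitochondrially encoded genes, counts divided by 4, other filters, a replicate block, 4-library fits and each library left out. The test was tried on simulated data. The 30 genes, the lists and the genes named (all members, in other lists up to 5 that passed by smallest p, the regulators, and in genotype comparisons members at an unadjusted p under 0.05) were chosen with earlier results of these data known. A gene's leading transcript is that with the highest mean FPKM in the deposited transcript table, which gives its length, and exons are from GENCODE M21 (GRCm38). Python 3.11.15 was used for the tables. The values of 1 listed gene are not reported here.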

Additional observations from a re-analysis of the deposited data

Results flagged for a closer look

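Bdh1, Oxct1, Dbt and Hibch stood out because their change after MI differed between the genotypes in the test of that difference itself, at an unadjusted p under 0.05 and without passing the adjustment over 14028 genes in edgeR. The interaction on the log2 scale, CKO minus fl/fl, was 2.27 ± 0.58 (unadjusted p = 0.00555, adjusted p = 0.574) for Bdh1, 1.05 ± 0.26 (unadjusted p = 0.00509, adjusted p = 0.563) for Hibch, 0.93 ± 0.30 (unadjusted p = 0.0171, adjusted p = 0.574) for Oxct1 and 0.87 ± 0.34 (unadjusted p = 0.0376, adjusted p = 0.574) for Dbt. In CKO both MI libraries lay above both sham libraries for each of these genes. In fl/fl the same held for Oxct1 alone, and Bdh1 went from 51.4 and 44.2 CPM in sham to 55.8 and 26.2 CPM in MI. Each had lower values in both CKO-Sham libraries than in either fl/fl control, and with 2 libraries in a group a single library carries much of the value: leaving out 1 library moved the interaction of Bdh1 between 1.83 and 2.93. DESeq2 called 1 of the 30 members for the interaction, Bdh1, and 0.952% of all genes. On simulated data for MI against sham, DESeq2 made more wrong calls than edgeR, as given below. The libraries labelled CKO-Sham held little Esr1 RNA and that labelled fl/fl-MI 2 held much, as given above, and whether the genotype labels bear on these values was not tested.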

How the results depend on the processing

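The counts of members called changed with scaling and with single libraries. For MI against sham over both genotypes, the 10 calls became 22 with limma on log2(FPKM + 1) and log2(FPKM + 0.1) and 0 with fl/fl-Sham as the only sham group, and they ranged from 2 to 19 when 1 library was left out (fewest without CKO-Sham 1 or fl/fl-Sham 2, most without fl/fl-MI 1). The other settings gave 7 to 14. For CKO-MI against CKO-Sham, the 6 became 11 with DESeq2, 10 with library size without mitochondrially encoded genes, 22 with limma on either FPKM scale, 11 with no filter and 12 with only the 4 libraries compared, and ranged from 0 to 17 when 1 library was left out. For fl/fl-MI against fl/fl-Sham, the 0 became 3 with DESeq2, 2 with library size without mitochondrially encoded genes, 10 with limma on either FPKM scale, 3 at a mean FPKM of at least 5, 1 with no filter, 1 with offsets for length and GC content and 2 with the crossed block, and ranged from 0 to 10 when 1 library was left out. The genotype comparisons stayed at 0, except for 6 in sham with only the 4 libraries compared, 1 in the interaction with DESeq2, and a range of 0 to 2 after MI and 0 to 1 in the interaction when 1 library was left out. Over both genotypes, limma on log2(FPKM + 0.1) called 50.8% of all genes higher and 5.88% lower, and fl/fl-Sham alone gave 8.46% and 8.23%. DESeq2 called 28.8% of all genes in fl/fl and 0.952% in the interaction, either direction. The fit on the 4 sham libraries called 0.741% lower. Where no share of all genes is given here or above, a count cannot be set against a background. The cause of these shifts was not tested. The median change of all genes was 0.41 and 0.56 on the FPKM scales, and relative to it 21 and 20 of the 30 members lay above, as 20 did with TMM.

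Members not called changed sign as follows for MI against sham over both genotypes (log2). With sham limited to fl/fl-Sham and MI without fl/fl-MI 2, the values were Cs -0.0721, Idh3a -0.25, Idh3b -0.34, Dlst -0.11, Fh1 -0.37, Acat1 -0.0958, Ivd -0.22, Hibadh -0.44 and Pcca -0.0083. With sham limited to fl/fl-Sham, the values were Idh3b -0.12, Fh1 -0.11 and Hibadh -0.23. With limma on log2(FPKM + 0.1), the values were Idh3g 0.45, Mdh2 0.28, Bcat2 0.41, Bckdha 0.0615, Ppm1k 0.37, Mccc2 0.34 and Auh 0.47. With limma on log2(FPKM + 1), the values were Idh3g 0.44, Mdh2 0.28, Bcat2 0.38, Bckdha 0.0611, Ppm1k 0.32, Mccc2 0.32 and Auh 0.38. With offsets for transcript length, the values were Idh3g 0.0806 and Auh 0.0879. With offsets for transcript length and GC content, the values were Idh3g 0.0564, Bcat2 0.0387 and Auh 0.0476. With no filter, the value was Ppm1k 0.0045. With mean FPKM of at least 5, the value was Hibadh -0.0325. When 1 library was left out, ranges crossing 0 were -0.0004 to 0.42 for Idh3a, -0.13 to 0.23 for Idh3b, -0.35 to 0.11 for Idh3g, -0.16 to 0.28 for Fh1, -0.0253 to 0.46 for Acat1, -0.66 to 0.25 for Ppm1k, -0.52 to 0.10 for Mccc2, -0.22 to 0.0223 for Auh, -0.16 to 0.19 for Hibadh. None of the 10 called members changed sign. Over 45 gene values, 497 of the values under other settings and 268 of those with 1 library left out kept direction and side of the threshold, 33 and 60 lost the call, 46 and 18 gained it, and 33 and 14 changed sign.

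The labels number the libraries of each group and do not say whether equal numbers mark a pairing. Deviations of libraries with the same number correlated between -0.21 and 0.055. With 2 libraries in a group, these correlations cannot settle whether the numbers pair them. With the replicate number as a block, 7 members were called over both genotypes, 6 in CKO and 0 elsewhere, and with the numbers of fl/fl-MI crossed, 11, 9 and, in fl/fl, 2. The share of all genes called in these block fits is not given, so their counts cannot be set against a background. With 2 libraries against 2 an exact permutation test cannot go below 0.333. On simulated data for MI against sham over 14028 genes, edgeR recovered 54 of 100 changes of log2 1 and 98 of 100 of log2 2, so changes of the size seen in most members could be missed. Its wrong calls numbered 11, against 62 for DESeq2, which recovered 83 and 98. The settings with length offsets, a crossed block or limited sham libraries were chosen after seeing the data.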
